A study of Rattus norvegicus with 50 samples.

Results

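The 8 genes described here encode the MHC class II presentation machinery of the rat: the classical alpha and beta chains RT1-Ba, RT1-Bb, RT1-Da and RT1-Db1, the peptide loading chains RT1-DMa and RT1-DMb, the invariant chain Cd74 and the class II transactivator Ciita. They were taken by gene symbol, and each of the 8 was measured by 1 transcript cluster of the array, out of 15049 genes with a single symbol. Expression was measured on Affymetrix GeneChip Rat Clariom S arrays in peripheral blood mononuclear cells (PBMC) and in hippocampus of male Wistar rats, an outbred stock, killed at 3.5 months of age. MONW-Lep animals (labelled LEP, 9 per tissue) received oral recombinant murine leptin in Captisol on days 1 to 20 of lactation and then a high-fat diet with 60% of calories from fat, given isocalorically to the intake of NW animals. MONW animals (metabolically obese, normal-weight; labelled HF, 8 per tissue) received the Captisol vehicle and the same high-fat diet. NW animals (normal-weight; labelled CTRL, 8 per tissue) received the vehicle and a diet with 10% of calories from fat. The diets began on day 23 and lasted 11 weeks. The pups came from 8 litters. The labels give neither the litter nor the RT1 alleles of an animal, so no litter could enter a fit. PBMC and hippocampus arrays with the same group and number were taken as 1 animal, which gave 25 animals, though the labels do not state this pairing outright. The leptin group was made up of 10 animals, of which number 9 was not analysed here.

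MHC class II molecules are pairs of an alpha and a beta chain that present peptides from endocytosed proteins to CD4+ T cells. The invariant chain Cd74 fills the groove of the new pair until lysosomal proteases degrade it, and the DM pair then exchanges its last fragment for a peptide, a step that the DO pair (RT1-DOa, RT1-DOb) inhibits. Transcription of these genes depends on CIITA, which binds no DNA itself but docks on factors assembled on the X and Y boxes of the promoters. In blood, class II is carried mainly by B cells, monocytes and dendritic cells. In brain it is carried mainly by border macrophages and by microglia once activated, and neurons lack it. The RT1 class I and class II genes are among the most polymorphic of the rat.

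The promoters of the classical chains and of RT1-DMa are shown because the X and Y boxes of class II promoters are where CIITA acts. RefSeq promoters (GRCr8) were given for 6 of the 8 genes. RT1-DMb and Ciita had no entry. The 250 bases before the start were searched on both strands for the Y-box letters TGATTGG and for X-box letters, defined, after the sequences had been read, as the bases that the first capital stretches of RT1-Bb, RT1-Da, RT1-Db1 and RT1-DMa below share, with any base allowed where these differ. The matches of the 2 patterns did not overlap in these promoters. In the windows below, capitals mark both matches, 5′ to 3′ on the coding strand.
RT1-Ba, chr20:4576970-4577030, plus strand: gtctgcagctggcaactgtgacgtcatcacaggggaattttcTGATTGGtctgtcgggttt
RT1-Bb, chr20:4604163-4604223, minus strand: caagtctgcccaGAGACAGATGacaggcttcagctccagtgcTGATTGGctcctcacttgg
RT1-Da, chr20:4515321-4515382, plus strand: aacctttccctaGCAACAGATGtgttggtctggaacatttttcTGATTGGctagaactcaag
RT1-Db1, chr20:4560226-4560286, minus strand: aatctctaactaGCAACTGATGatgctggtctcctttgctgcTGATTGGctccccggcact
RT1-DMa, chr20:4712383-4712444, minus strand: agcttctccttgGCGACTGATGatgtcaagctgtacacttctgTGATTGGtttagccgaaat
The Y-box letters began 45 bases before the start in RT1-Ba, 51 in RT1-Da, 63 in RT1-Bb, 66 in RT1-DMa and 82 in RT1-Db1. X-box letters preceded them in RT1-Bb, RT1-Da, RT1-Db1 and RT1-DMa, with 20 or 21 bases between the matches. RT1-Ba matched the Y-box letters alone, and the Cd74 promoter matched neither pattern. The X-box letters were taken from the other 4 promoters shown, so a missing match does not show that a box is absent. Whether RT1-Ba or Cd74 holds an X box of other letters was not tested. Of 33469 promoters of the same length, 2.26% held the X-box letters, 6.42% held the Y-box letters, and 10 (0.0299%) held X-box letters followed by Y-box letters within 40 bases. Besides the 4 members, from which the X-box letters were taken, these 10 were RT1-Db2, a beta chain gene closely related to RT1-Db1, RT1-DOb, and 4 promoters of genes outside class II presentation: Asb15 with 2 entries, Hsd17b7 and Slc4a5.

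The median correlation of an array to the others of the same tissue was 0.974 to 0.986 in PBMC. In hippocampus it was 0.988 to 0.991 for 24 arrays, while MONW replicate 7 stood apart at 0.978 and had the lowest limma array weight of the 50, 0.324. Markers followed the labelled tissue: the mean of 7 B cell markers was 8.63 to 10.11 on the log2 scale over PBMC arrays and 5.06 to 5.58 over hippocampus arrays, while that of 6 neuronal markers was 5.80 to 6.64 in PBMC and 11.75 to 12.11 in hippocampus. The mean of 7 choroid plexus markers varied widely among hippocampus arrays, with 6.75 to 10.21 in MONW-Lep, 6.52 to 10.51 in MONW and 6.84 to 10.57 in NW. Nothing in the labels says whether arrays of 1 group came from separate litters, so p-values measure the spread between these animals.

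All 8 genes were expressed at a higher level in PBMC than in hippocampus, in 25 of 25 animals each. Cd74, the invariant chain, stood at 11.59 to 12.55 on the log2 scale in PBMC, against 5.85 to 8.02 in hippocampus, a 37.3-fold difference (5.22 ± 0.11 on the log2 scale, SE; limma adjusted p = 5.38e-41). The alpha chain RT1-Da was 22.7-fold higher in PBMC, the DM beta chain RT1-DMb 7.74-fold and the DM alpha chain RT1-DMa 4.74-fold. Ciita, the transactivator, was 4.31-fold higher and RT1-Bb 4.29-fold higher. With hippocampal values under the median of the array's negative control probes set to that median, RT1-Ba was 13.5-fold and RT1-Db1 6.27-fold higher. This floor was chosen after the data had been seen, and PBMC values were not corrected for background. The negative control median was higher on every PBMC array than on any hippocampus array. The fold differences of the 8 genes may thus include a difference in background, and its part was not tested. RT1-Db1 and RT1-Db2 are close copies, and signal that their probes may share was not tested. For each gene the lowest PBMC array lay above the highest hippocampus array. Of all genes tested, 84.3% passed adjusted p 0.05 between the tissues, and 48.3% were higher in PBMC at unadjusted p 0.05, so a tissue difference was common on these arrays. These are bulk samples, in which fewer cells of a type and less RNA per cell cannot be told apart.

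The hippocampal signal of the 8 genes was set against the array's own negative control probes, whose median was 5.08 to 5.45 on hippocampus arrays. On PBMC arrays that median reached 6.63, and the lowest PBMC median lay above the highest hippocampal one. RT1-Ba lay above the median of the negative controls on 4 of 25 hippocampus arrays and RT1-Db1 on 8, against 25 of 25 PBMC arrays for each. Ciita lay above it on 22 hippocampus arrays, and the other 5 genes on 25. Above the 95th percentile of the negative controls lay RT1-DMa on 1 of 25 hippocampus arrays and the other 7 genes on 0. In PBMC, RT1-Da, RT1-DMb and Cd74 lay above it on 25 of 25 arrays, RT1-DMa on 24, RT1-Ba on 16, RT1-Bb on 7, and RT1-Db1 and Ciita on 0. Hippocampal differences of RT1-Ba and RT1-Db1 thus stand at background level, and those of the other genes at low signal.

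**Figure D1:**
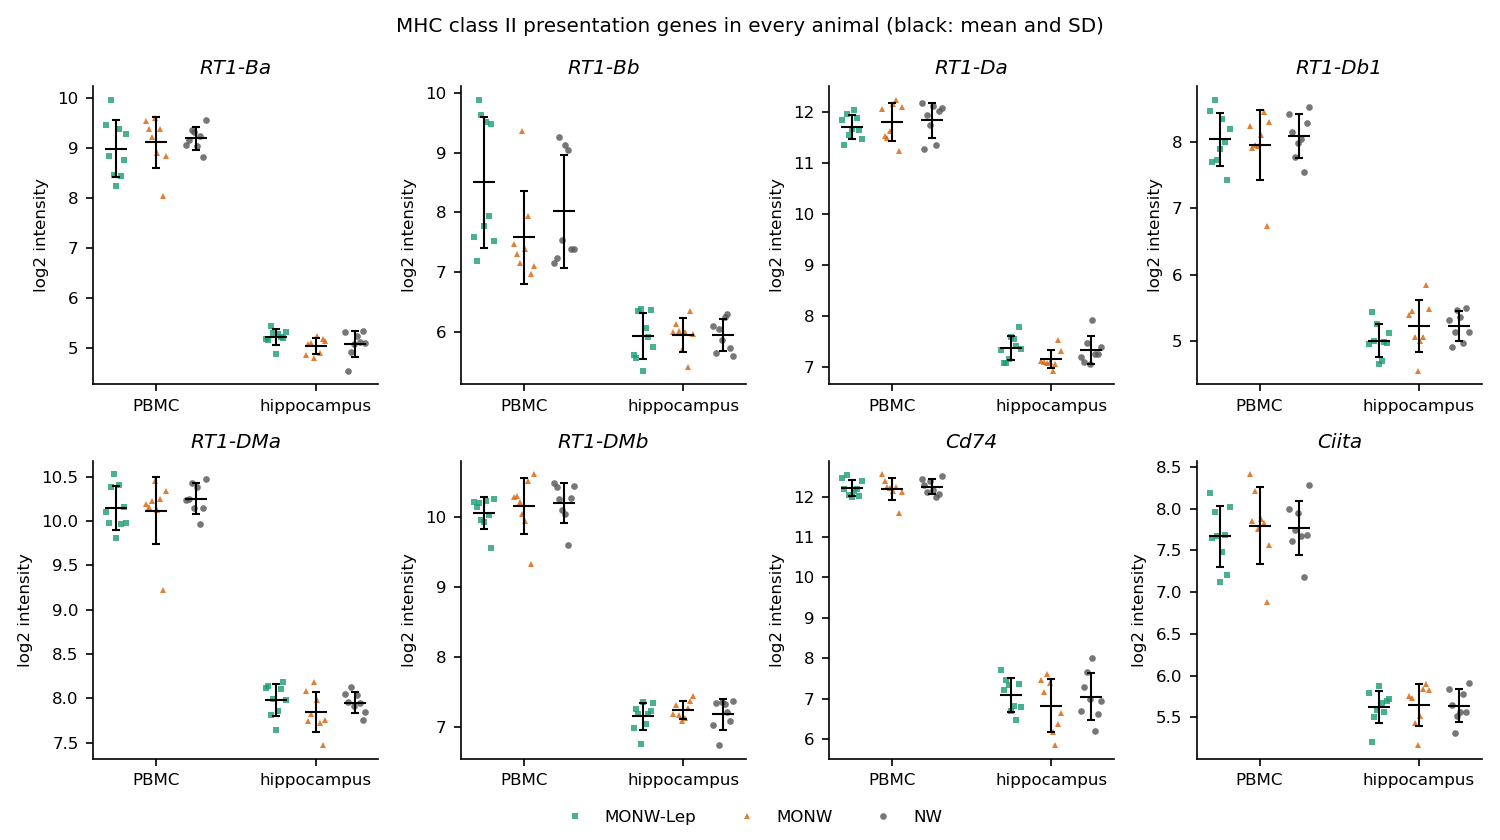
Log2 intensity of the 8 genes in PBMC and in hippocampus, with 1 point per animal (horizontal position within a group has no meaning) and the mean and SD of each group in black. PBMC RT1-Bb alone divides into high and low animals, and the PBMC array of MONW replicate 7 is the lowest point of each gene.

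The first question was whether the high-fat diet, with or without leptin, changed these genes in PBMC. Between MONW-Lep and MONW animals, 1 of the 8 genes passed the study's threshold of unadjusted p 0.05, against 2.45% of all genes, 1.34% in the higher direction. Between MONW-Lep and NW animals 0 of 8 did, against 4.75% of all genes (2.36% higher). Between MONW and NW animals 0 of 8 did, against 3% of all genes (1.63% higher). No gene on the array passed an adjusted p of 0.05 in any of the 3 PBMC comparisons (limma), where 369, 715 and 452 genes passed the unadjusted threshold.

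The invariant chain and the alpha chains differed little between the groups in PBMC. Cd74 had a lowest, median and highest value of 11.98, 12.18 and 12.54 in MONW-Lep, 11.59, 12.22 and 12.55 in MONW, and 11.98, 12.22 and 12.50 in NW. The 3 groups overlapped almost fully, and the differences were 0.03 ± 0.11 for MONW-Lep minus MONW, -0.03 ± 0.11 for MONW-Lep minus NW and -0.06 ± 0.11 for MONW minus NW (log2, SE). RT1-Da had 11.35, 11.67 and 12.05 in MONW-Lep, 11.24, 11.85 and 12.25 in MONW, and 11.28, 11.98 and 12.17 in NW. RT1-Ba had 8.26, 8.85 and 9.98 in MONW-Lep, 8.04, 9.30 and 9.62 in MONW, and 8.83, 9.21 and 9.56 in NW. Both overlapped between all groups, with differences of -0.13 to -0.03 for RT1-Da and -0.21 to -0.08 for RT1-Ba. The spread of RT1-Ba was 0.57 in MONW-Lep (SD, n = 9), 0.52 in MONW (SD, n = 8) and 0.23 in NW (SD, n = 8), and this difference in spread was not tested. The lowest MONW value, 8.04, came from replicate 7, whose PBMC array was the lowest for all 8 genes. For RT1-Da the SD was 0.24 in MONW-Lep, 0.38 in MONW and 0.35 in NW.

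RT1-Bb, the beta chain that pairs with RT1-Ba, was the gene past the threshold. Its PBMC values were 7.18, 7.94 and 9.89 in MONW-Lep (lowest, median, highest) and 6.96, 7.34 and 9.37 in MONW. NW animals had 7.15, 7.46 and 9.26. The groups overlapped, and 4 of 9 MONW-Lep animals lay above all MONW animals. These values form separate clusters, described below, and the upper cluster held 4 of 9 MONW-Lep and 1 of 8 MONW animals. The difference of means that follows includes this difference in counts, and its part was not tested. The mean was 0.92 ± 0.42 higher in MONW-Lep than in MONW (log2, SE; limma p = 0.0381, adjusted p = 0.99991), and the two-sided exact permutation test gave p = 0.0630. The limma p passed 0.05 no longer without any 1 of 10 arrays, namely MONW replicates 1, 2, 3, 5, 7 and 8 and MONW-Lep replicates 3, 4, 6 and 8, without which it lay at 0.0532 to 0.0861. Against NW, RT1-Bb differed by 0.49 ± 0.42 in MONW-Lep (exact permutation p = 0.336) and by -0.43 ± 0.43 in MONW (exact permutation p = 0.372).

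The loading chains and the transactivator did not pass in PBMC either. RT1-DMa, RT1-DMb, RT1-Db1 and Ciita differed between the groups by -0.14 to 0.09 on the log2 scale over the 3 comparisons, with standard errors of 0.13 to 0.20. The PBMC array of MONW replicate 7 held the lowest of the 25 values for 8 of the 8 genes. On the same array the standardized mean of the 7 B cell markers was -2.12 and that of the 7 monocyte markers -1.25, while that of 8 T cell markers was 1.46. Without this array no PBMC comparison gained a call. Of the B cell markers 0 of 7 passed the unadjusted threshold in any PBMC comparison, and of the monocyte markers 2 of 7 did, Lyz2 (-0.19 ± 0.09) and Cd68 (-0.37 ± 0.18), both lower in MONW-Lep compared with NW.

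In hippocampus 0 of the 8 genes passed the unadjusted threshold in MONW-Lep against MONW (3.1% of all genes did, 1.38% higher), in MONW-Lep against NW (2.34%, 0.957% higher) and in MONW against NW (3.08%, 1.63% higher). No gene on the array passed an adjusted p of 0.05 (limma) in these 3 comparisons. The alpha chains came closest. RT1-Ba had 4.88, 5.23 and 5.43 in MONW-Lep, 4.80, 5.09 and 5.25 in MONW, and 4.55, 5.12 and 5.35 in NW. Its mean was 0.18 ± 0.09 higher in MONW-Lep than in MONW (limma p = 0.0556, adjusted p = 0.99877; exact permutation p = 0.0313), with 4 of 9 MONW-Lep animals above all MONW animals. RT1-Da had 7.08, 7.35 and 7.78 in MONW-Lep, 6.93, 7.10 and 7.52 in MONW, and 7.07, 7.25 and 7.91 in NW. Its difference of 0.22 ± 0.11 between MONW-Lep and MONW did not pass either (limma p = 0.0561; exact permutation p = 0.0572). Markers of other cells passed between the same groups, all higher in MONW-Lep: 1 of 7 B cell markers, Cd79b (0.37 ± 0.17), 1 of 7 monocyte markers, Fcgr1a (0.24 ± 0.11), 1 of 5 border macrophage markers, Pf4 (0.40 ± 0.15), and 2 of 5 platelet markers, Pf4 again and Ppbp (0.28 ± 0.11). Of the border macrophage markers 5 of 5, of the NK cell markers 6 of 6 and of the choroid plexus markers 6 of 7 had a difference above 0. Their medians were 0.10, 0.12 and 0.09, beside 6 of 11 microglia markers with a median of 0.03. The median over all genes was -0.003. Above 0 were also 4 of 5 platelet, 5 of 7 B cell, 5 of 7 monocyte and 5 of 8 T cell markers. For dendritic cell, erythroid and neuronal markers the counts were 3 of 6, 2 of 4 and 2 of 6. The hippocampal means of the NK and B cell markers, 5.06 to 5.48 and 5.06 to 5.58, lay near the negative control median of 5.08 to 5.45. The part of these cells and of choroid plexus in the RT1-Ba and RT1-Da differences was not tested. Without MONW replicate 7, the hippocampus array that stood apart, the differences of RT1-Ba (0.20 ± 0.10) and RT1-Da (0.27 ± 0.11) passed the unadjusted threshold, and with array weights both did too (0.21 ± 0.09 and 0.27 ± 0.10). Without the same array RT1-Da also passed between MONW and NW (-0.23 ± 0.11). In all, leaving out any 1 of 8 arrays gave 1 or 2 of the 8 genes past the threshold between MONW-Lep and MONW, among RT1-Ba, RT1-Da, RT1-Db1 and RT1-DMa.

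Hippocampal Cd74 was the most variable of the 8 genes there. It ranged over 6.47, 7.22 and 7.72 in MONW-Lep, 5.85, 6.91 and 7.60 in MONW, and 6.19, 6.97 and 8.02 in NW, with differences of at most 0.26 ± 0.25 between the groups. The RT1-Db1 difference was -0.23 ± 0.13 between MONW-Lep and MONW (exact permutation p = 0.167) and -0.22 ± 0.13 between MONW-Lep and NW (exact permutation p = 0.0722). RT1-Bb differed by -0.01 in MONW-Lep against either group, and RT1-DMa, RT1-DMb and Ciita by -0.11 to 0.14.

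A test of the difference between the tissues was run for each of the 3 comparisons. RT1-Bb was the only one of the 8 genes to pass in any: the difference of MONW-Lep and MONW was 0.93 ± 0.46 larger in PBMC than in hippocampus on the log2 scale (past the unadjusted threshold, limma adjusted p = 0.99985), where 2.49% of all genes passed, 1.39% with a larger difference in PBMC. The PBMC values of RT1-Bb form separate clusters, shown next, which enter this difference too. For MONW-Lep against NW 0 of 8 passed (3.29% of all genes, 1.83% larger in PBMC), and for MONW against NW 0 of 8 (3.24%, 1.67% larger).

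**Figure D2:**
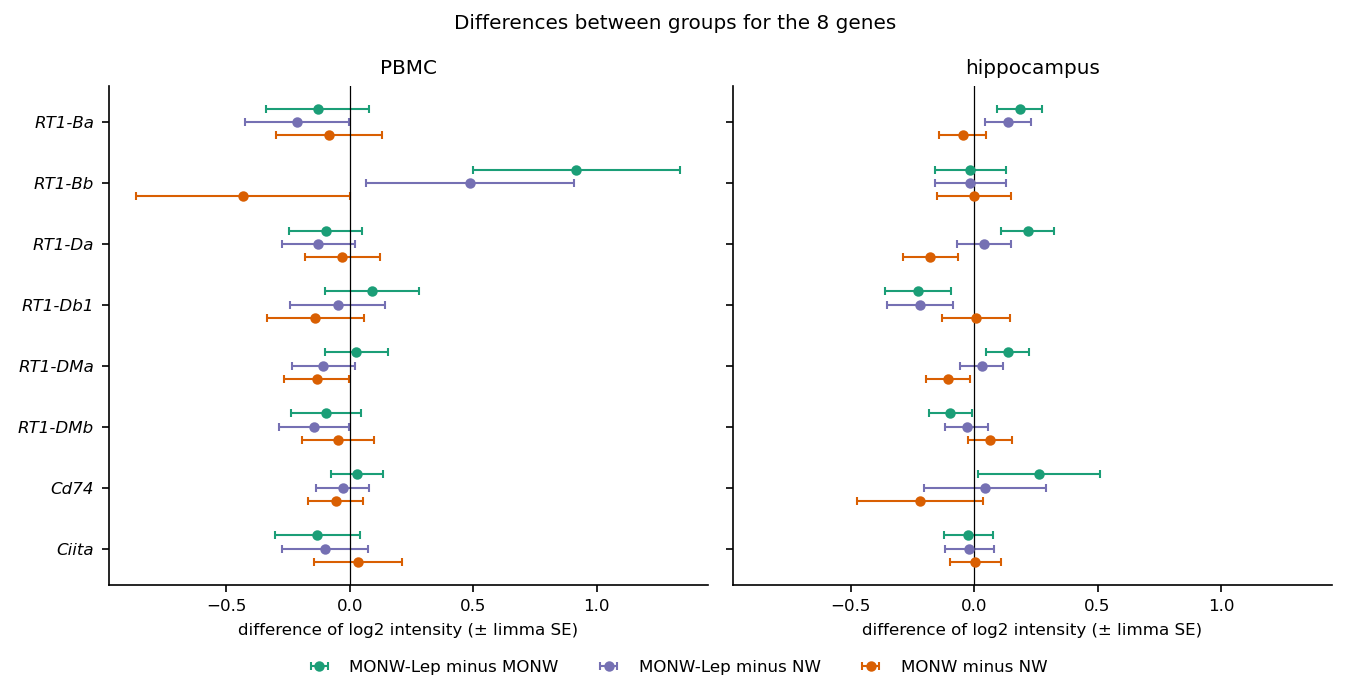
Differences of mean log2 intensity between the groups for each gene, with the limma standard error, in PBMC (left) and hippocampus (right). PBMC RT1-Bb shows the largest difference, 0.92 for MONW-Lep minus MONW, and all others lie within 0.5 of 0.

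The PBMC values of RT1-Bb fell into separate clusters of animals. The upper cluster held 8 animals at 9.05 to 9.89 and the lower cluster 17 animals at 6.96 to 7.94, and no animal lay between 7.94 and 9.05. The upper cluster held 4 of 9 MONW-Lep animals (replicates 3, 4, 6 and 8), 1 of 8 MONW animals (replicate 4) and 3 of 8 NW animals (replicates 3, 5 and 6). Each group thus held animals of both kinds, and the groups differed in the number of upper animals. None of the other 7 genes divided in this way in PBMC, and RT1-Bb did not in hippocampus. Among all 15049 genes, 118 formed separate clusters by the same rule in PBMC and 85 in hippocampus. Of these, 4 in PBMC, RT1-Bb among them, and 5 in hippocampus had 6 or more animals on either side. The 8 animals were defined by RT1-Bb itself, and few other genes had a division of a size that could match. None of the others put exactly these 8 animals on one side.

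The same 8 animals stood apart for few other genes. In PBMC, 2 of 15049 genes had all 8 upper animals above all 17 others: RT1-Bb itself, and Tmlhe, a gene of carnitine synthesis that also lies on chromosome 20, with 7.37 to 8.29 in the 8 animals and 6.81 to 7.35 in the 17. In hippocampus 0 genes did, and Tmlhe lay at 6.83 to 7.69 in the 8 animals and 7.03 to 7.73 in the 17. The class I heavy chain RT1-A1, on the same chromosome, had 9.70 to 10.12 in the 8 animals and 9.36 to 10.05 in the 17, of which 14 lay below all 8. In hippocampus its ranges were 6.59 to 7.17 in the 8 animals and 5.70 to 6.79 in the 17. The DO beta chain RT1-DOb had 8.43 to 9.27 in the 8 animals and 7.83 to 8.75 in the 17. Tiam1, which lies on chromosome 11, had 7.135 to 7.992 in the 8 animals and 6.312 to 7.214 in the 17. For Tiam1, 7 of the 8 lay above all 17, and 16 of the 17 lay below all 8, so a near division was not limited to chromosome 20. The partner chain RT1-Ba overlapped, at 8.47 to 9.98 in the 8 animals (2 above all others) and 8.04 to 9.56 in the 17 (3 below all others). These animals were divided by a measured value, so no test was made between them.

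Hippocampal RT1-Bb ranged over 5.70, 6.27 and 6.37 in the 8 animals (lowest, median, highest) and 5.35, 5.87 and 6.34 in the 17. Within MONW-Lep the 4 upper animals had 6.07 to 6.37 in hippocampus and the 5 others 5.35 to 5.92. Within NW the 3 upper animals had 6.05, 6.25 and 6.29 and the 5 others 5.59 to 6.09, so that the ranges overlapped. The 1 upper MONW animal ran the other way, with 5.70, and 6 of the 7 other MONW animals had higher values. Because the animals form clusters, no correlation over all 25 is given for this gene. Within the 17 lower animals the PBMC and hippocampal values of RT1-Bb had r = -0.49 (permutation p = 0.0851) and rho = -0.26 (permutation p = 0.331), and within the 8 upper animals r = 0.03 (permutation p = 0.973) and rho = -0.17 (permutation p = 0.731). Without the 2 farthest animals r was -0.42 and -0.12.

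**Figure D3:**
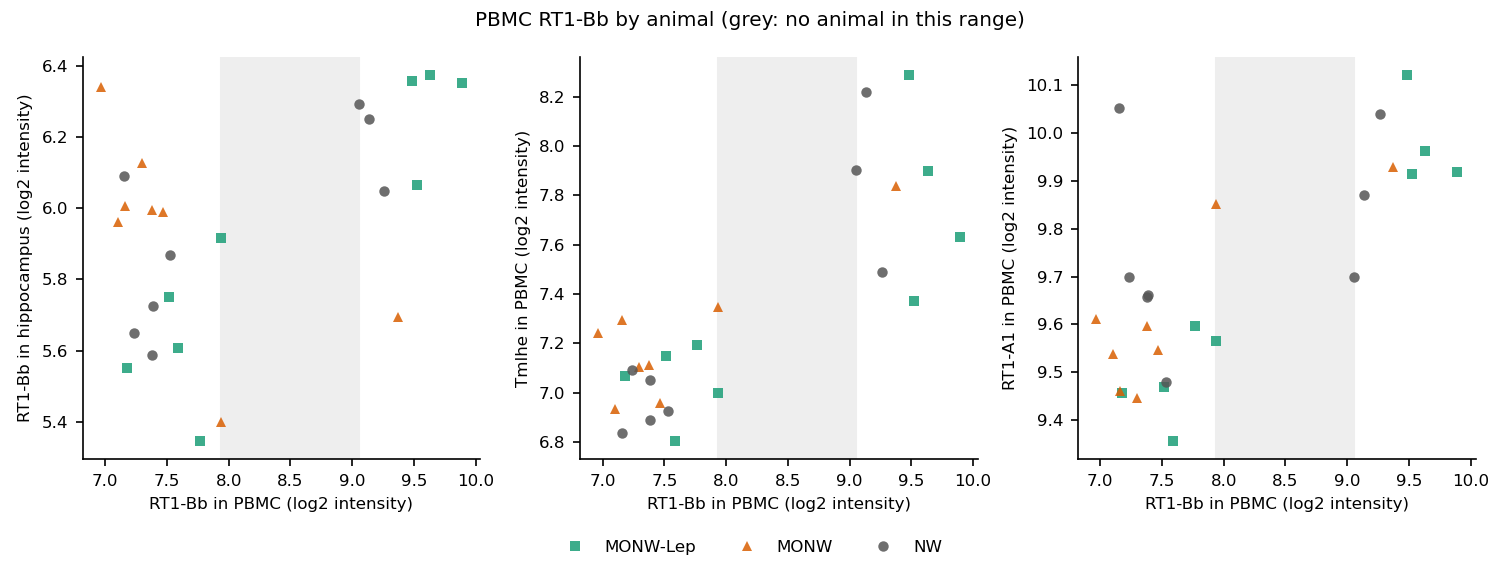
PBMC RT1-Bb (log2 intensity) of each animal against its hippocampal RT1-Bb (left), PBMC Tmlhe (middle) and PBMC RT1-A1 (right); squares are MONW-Lep, triangles MONW and circles NW animals. No animal lies in the grey range of 7.94 to 9.05, and Tmlhe separates the 8 animals to its right from the 17 to its left.

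For the other 7 genes, the covariation of the tissues was tested over the 25 animals after removal of group means. None of the 7 correlated at a permutation p of 0.05. Pearson's r was 0.42 for RT1-DMa, 0.34 for Cd74, 0.11 for RT1-Da, -0.03 for RT1-DMb, -0.06 for RT1-Ba, -0.15 for Ciita and -0.29 for RT1-Db1. Over all genes the median r was 0.02, and 6.69% had an unadjusted linear model p under 0.05. RT1-DMa passed that linear model (p = 0.0455, adjusted p = 0.731) but not the permutation test (p = 0.0784; rho = 0.14, permutation p = 0.528), and its r was -0.10 without the 2 animals farthest from the PBMC median and 0.12 without MONW replicate 7. Cd74 had rho = 0.37 (permutation p = 0.0772; Pearson permutation p = 0.131; adjusted p = 0.822), and r = 0.23 without the 2 farthest animals. Among the 61 annotated genes around RT1-Ba on chromosome 20, 51 were tested besides RT1-Bb, which was left out for its clusters after the data had been seen. Their median r was 0.05, and 6 passed the unadjusted linear model threshold with r above 0, beside 4.03% of all genes. These were Wdr46 (r = 0.62), Fkbpl (r = 0.54), Vps52 (r = 0.46), Pfdn6 (r = 0.45), Col11a2 (r = 0.44) and RT1-DMa. None of the 51 passed an adjusted p of 0.05, which 7 genes (0.0465%) did over the array: Ccdc77, Rtel1, RGD1309362, Fam20b, Tmco3, the class I gene RT1-N2 (r = 0.77, adjusted p = 0.0450) and Psat1. By the rule applied to RT1-Bb, Ccdc77 and Fam20b form separate clusters in hippocampus and RGD1309362 in PBMC. Their correlations are thus over clustered values.

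Within PBMC, the class II genes varied together from animal to animal. All 21 pairs among the 7 genes without RT1-Bb had r above 0 after removal of group means, from 0.26 to 0.90 with a median of 0.62, and 18 of 21 passed a permutation p of 0.05. Cd74 and Ciita were closest, with r = 0.90 and rho = 0.87 (limma adjusted p = 4.968e-06), and r = 0.83 without the 2 farthest animals. The permutation p was 1e-05 for both coefficients, the smallest that the permutations can give. RT1-Db1 and RT1-DMb had r = 0.85 (permutation p = 1e-05) and rho = 0.78 (permutation p = 3e-05; limma adjusted p = 0.000871), and r = 0.70 without the 2 farthest animals. Adjusted over all genes, 7 of the 21 pairs passed, all with r above 0, when the gene of the pair that the opening lists first was the term in the fit. The adjusted p depends on that choice. For RT1-Ba and Cd74 the limma adjusted p was 0.0834 with RT1-Ba as the term and 0.000873 with Cd74 as the term. The share of all genes that passed with r above 0 was 2.83% for RT1-DMb, 1.97% for RT1-DMa, 1.48% for Cd74, 1.37% for Ciita, 0.924% for RT1-Da, 0.352% for RT1-Db1, 0.0133% for RT1-Bb and 0 for RT1-Ba. RT1-Da went least with the rest, at 0.26 with RT1-Ba, 0.36 with Cd74 and 0.40 with Ciita. Without MONW replicate 7, 9 of 21 pairs passed, 21 of 21 had r above 0, and the median r was 0.37.

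The B cell markers moved with them. All 7 measured B cell markers had r above 0 with each of these 7 genes, and 6 of 7 passed an adjusted p of 0.05 with Cd74. With Cd74, r was 0.88 for Cd79b, a chain of the B cell receptor, 0.86 for Cd22 and Fcrla, 0.81 for Fcer2, 0.73 for Bank1, 0.64 for Blk and 0.53 for Pax5, the B cell master regulator. Ciita had a median r of 0.80 with the 7 markers, RT1-Db1 0.74, RT1-DMb 0.66, RT1-Ba and RT1-Da 0.62 each and RT1-DMa 0.54. The loading chains also went with the 7 monocyte markers, with a median r of 0.65 for RT1-DMa and 0.64 for RT1-DMb, and 4 of 7 markers past an adjusted p of 0.05 for each. RT1-Da had a median r of 0.00 with the monocyte markers, and Cd74 -0.53 with the 8 T cell markers. All these values include MONW replicate 7, whose PBMC array stood low for the class II genes and for both the B cell and monocyte marker means. No marker correlation without that array is given here.

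With the mean of the B cell markers removed as well as the group means, 5 of the 21 pairs passed, 18 had r above 0, and the median r was 0.29. Cd74 with Ciita (r = 0.66) and Cd74 with RT1-Ba (r = 0.63) stayed above 0.6, as did RT1-Db1 with RT1-DMb (r = 0.71). RT1-Da then had r = -0.61 with Cd74 and -0.52 with Ciita. With the mean of the monocyte markers removed in its place, 14 of 21 pairs passed and the median r was 0.59. The part of the share of B cells in these correlations was not tested beyond these values.

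In hippocampus the correlations among the 8 genes had either sign. The 28 pairs had r from -0.53 to 0.51 with a median of 0.06, 17 were above 0, and 6 passed a permutation p of 0.05 (3 without MONW replicate 7, 3 without NW replicate 3 and 2 without MONW replicate 4). None passed an adjusted p of 0.05, again with the gene listed first as the term in the fit. RT1-Ba and RT1-Bb had the highest r, 0.51 (permutation p = 0.00634; rho = 0.51; limma adjusted p = 0.985). RT1-Ba and RT1-Db1 came next, with r = 0.49 (permutation p = 0.00971; rho = 0.45). RT1-Ba lay above the negative control median on 4 of 25 hippocampus arrays and RT1-Db1 on 8, so these are correlations of values at background level. RT1-DMa and Ciita had the lowest r, -0.53 (permutation p = 0.0125; rho = -0.42; limma adjusted p = 0.0674).

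**Figure D4:**
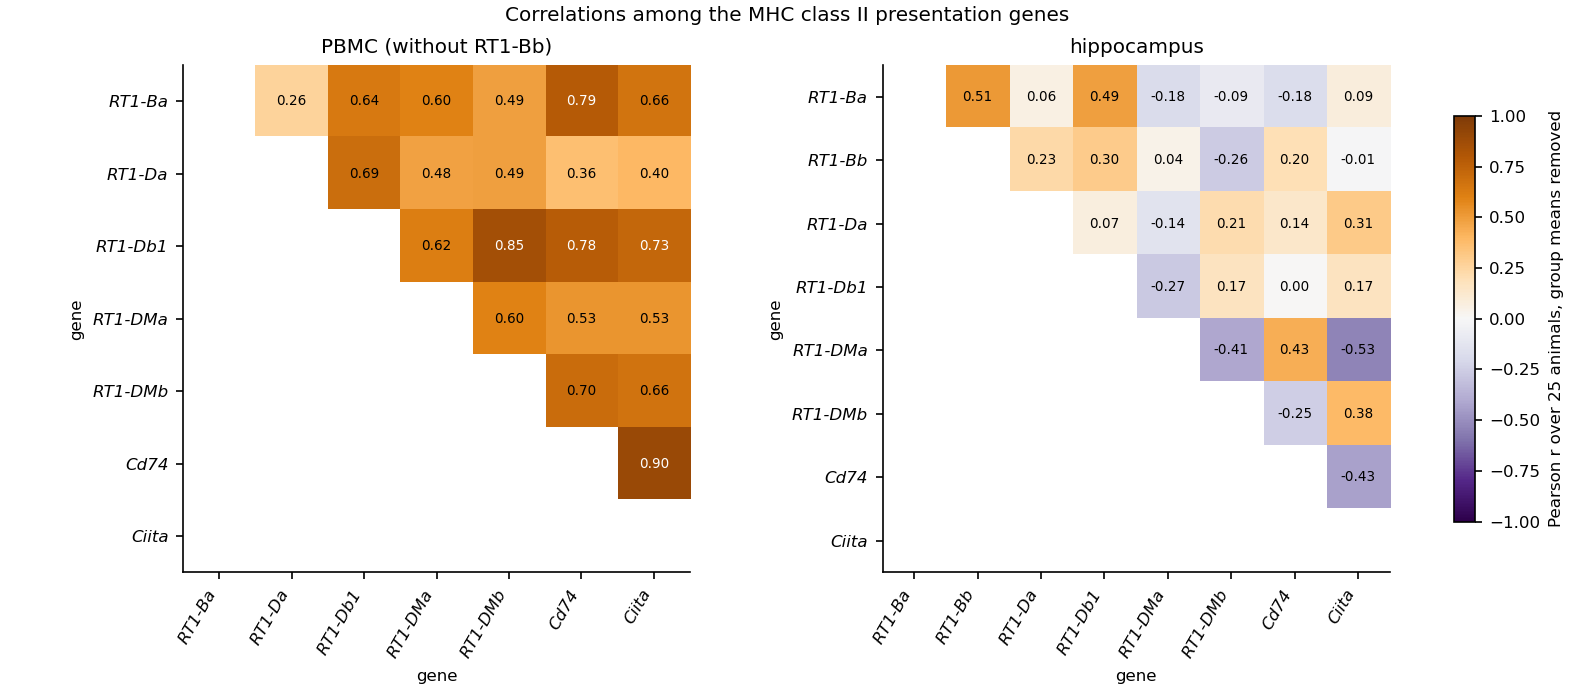
Pearson's r over 25 animals, after removal of group means, for each pair of genes in PBMC (left, without RT1-Bb, whose values form clusters) and hippocampus (right). All 21 PBMC pairs lie between 0.26 and 0.90, and the 28 hippocampal pairs between -0.53 and 0.51.

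Hippocampal Cd74 varied together with lysosomal genes. All 10 measured genes of peptide loading and lysosomal processing had r above 0 with Cd74, with a median of 0.62, and 3 of 10 passed an adjusted p of 0.05 (0.957% of all genes passed with r above 0). These were the aminopeptidase cathepsin H (Ctsh, r = 0.78, adjusted p = 0.00215), cathepsin D (Ctsd, r = 0.70, adjusted p = 0.0180) and the cathepsin inhibitor cystatin C (Cst3, r = 0.77, adjusted p = 0.0361). Cathepsin S (Ctss), which degrades the invariant chain, had r = 0.60 (adjusted p = 0.106). Lysozyme (Lyz2), from the monocyte list, had r = 0.83 (adjusted p = 0.000197). Of the 7 monocyte markers it was the 1 that passed an adjusted p of 0.05, and their median r was 0.25, with 6 above 0. Without MONW replicate 7 the 10 genes had a median r of 0.63 with Cd74, all above 0, and Lyz2 0.83. The 5 border macrophage markers had a median r of 0.49 with Cd74, the 6 choroid plexus markers without separate clusters 0.39, and the 11 microglia markers -0.06, none of them past an adjusted p of 0.05. The 4 measured class II genes outside the 8 members had a median r of -0.32 with Cd74, and 0 of these 4 had r above 0. The part of the dissected border tissue in Cd74 was not tested.

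The genes whose PBMC pattern was most like the mean of the standardized RT1-Ba, RT1-Bb, RT1-Da, RT1-Db1 and Cd74 were Sh3bp5 (r = 0.88), the class II alpha chain gene RT1-Ha (r = 0.86), Ankrd33b (r = 0.85), the cholesterol exporter Abca1 (r = 0.81) and Pxdc1 (r = 0.80), over 25 animals. In hippocampus they were the olfactory receptor gene Or2n1g (r = 0.69), Fxyd3 (r = 0.68), Pbp2 (r = 0.66), Ints4 (r = 0.66) and Rassf9 (r = 0.66). The hippocampal mean includes RT1-Ba and RT1-Db1, whose values there stood at background level. Genes were ranked by r alone, and no test was run on these correlations.

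In the rest of the pathway few genes passed the unadjusted threshold. Over all genes, 2.34% to 4.75% passed it in the 6 comparisons, so single calls in these lists are near that share. Of the 4 other measured class II genes, 1 passed the unadjusted threshold in PBMC of MONW-Lep against MONW, RT1-DOb (0.31 ± 0.13, limma adjusted p = 0.9999), and 0 passed in the other 5 comparisons. Of 12 measured class II transcription factors, Creb1, which binds the X box region, passed in PBMC for MONW-Lep minus NW (-0.29 ± 0.08, limma adjusted p = 0.786) and for MONW minus NW (-0.22 ± 0.08, limma adjusted p = 0.9999). The other 11 did not pass in any comparison. None of the 10 genes of peptide loading and lysosomal processing passed in any of the 6 comparisons. Of 9 ubiquitin ligases and costimulation genes, 1 passed, Marchf1, which removes class II from the cell surface, lower in hippocampus of MONW than of NW (-0.18 ± 0.07, limma adjusted p = 0.9993).

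Of 18 class I presentation genes, RT1-CE4 passed the unadjusted threshold in PBMC for MONW-Lep minus NW (-0.30 ± 0.13), and B2m, the class I light chain, in hippocampus for MONW minus NW (-0.15 ± 0.07). Interferon gamma is the main inducer of CIITA outside professional antigen-presenting cells. Of 10 genes of its pathway, from ligand and receptor to targets and the inhibitor Socs1, Gbp2 (-0.15 ± 0.07) and Cxcl9 (-0.27 ± 0.13) passed in hippocampus for MONW minus NW, and Ifng for MONW-Lep minus MONW (0.26 ± 0.10). None of these values passed after adjustment over all genes. The share of all genes past the unadjusted threshold was 4.75% in PBMC for MONW-Lep minus NW. In hippocampus it was 3.08% for MONW minus NW and 3.1% for MONW-Lep minus MONW. The median log2 difference of the 8 genes was -0.03 for MONW-Lep minus MONW, -0.10 for MONW-Lep minus NW and -0.07 for MONW minus NW in PBMC. In hippocampus these medians were 0.06, 0.01 and -0.02, beside medians within 0.01 of 0 over all genes.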

How the data were processed

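The deposited table of log2 intensities, per the labels background-corrected and normalized by the authors with RMA and limma in R 4.0.4, holds 24871 transcript clusters on 50 arrays (25 per tissue), and the 15049 with 1 gene symbol were tested. No genome build is named for the array design. The precision rests on the number of arrays, since intensities carry no counts. Groups came from the sample titles. Groups were compared within a tissue with limma 3.58.1 in R 4.3.3 (lmFit, eBayes, all 25 arrays), at the study's unadjusted p of 0.05 and with Benjamini-Hochberg adjustment over all genes. Single genes were also compared by two-sided exact permutation tests, and correlations by permuting animals within groups (100000 resamples), with Python 3.11.15 and scipy 1.17.1. The limma fits and correlations were tested on simulated data. Separate clusters were called where a gap exceeded 0.33 of the range with at least 2 arrays on either side. The members, gene lists and tests were chosen with earlier results of these data known. The genes named are the 8 members, listed genes past the unadjusted threshold, the 5 genes most like the class II mean in each tissue, the genes that correlated most between tissues and those around RT1-Ba that passed. Tmlhe, RT1-A1, Tiam1, RT1-DOb in the clusters, RT1-N2, Psat1, Lyz2 and the marker and lysosomal genes in correlations were named after their values were seen. PBMC and hippocampus arrays were paired by group and number as 1 animal, and with the animal as a block all 8 tissue differences passed. The medians of the arrays were 6.87 to 6.94 in PBMC and 7.10 to 7.17 in hippocampus, so the tissues do not share 1 distribution. Alternatives were another quantile normalization, a filter on low clusters, fits of 2 groups, array weights, marker covariates, a replicate block and leaving out each array. Levels were not compared between genes.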

Additional observations from a re-analysis of the deposited data

Results flagged for a closer look

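Among 48 groups of arrays examined for a value far from the others, 7 held one, where chance gives about 1 in 20. The PBMC array of MONW replicate 7 gave 3 of them, with low values of Cd74 (11.59, next lowest 12.11), RT1-DMa (9.22, next 10.12) and RT1-Db1 (6.73, next 7.91). The others were RT1-Bb in PBMC of MONW replicate 4 (9.37, next highest 7.94), RT1-DMb in PBMC of MONW-Lep replicate 8 (9.56, next lowest 9.92), RT1-Ba in hippocampus of MONW-Lep replicate 5 (4.88, next lowest 5.17) and RT1-Da in hippocampus of NW replicate 5 (7.91, next highest 7.46). The difference of MONW-Lep and MONW for RT1-Bb was larger in PBMC than in hippocampus by 0.93 on the log2 scale (past the unadjusted threshold, limma adjusted p = 0.99985). The upper PBMC cluster of RT1-Bb held 4 of 9 MONW-Lep animals and 1 of 8 MONW animals.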

How the results depend on the processing

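The 8 tissue differences, and the counts of 0 for PBMC MONW against NW and MONW-Lep against NW, held under every alternative run, with each array left out too. The 1 call in PBMC of MONW-Lep against MONW became 0 at an adjusted p of 0.05, and 0 to 1 with an array left out. In hippocampus, MONW-Lep against NW gave 1 call in place of 0 with only 2 groups in the fit (RT1-Db1), and 0 to 1 with an array left out (RT1-Db1 without MONW-Lep replicate 2). MONW-Lep against MONW gave 2 with only 2 groups, 2 with array weights (RT1-Ba and RT1-Da in both), 1 with the replicate number as a block (RT1-Da, 0.22), and 0 to 2 with an array left out (calls without MONW replicates 4, 5, 7 or 8 or MONW-Lep replicates 2, 3, 4 or 5). MONW against NW gave 0 to 1 (RT1-Da without MONW replicate 7). Same-numbered arrays of different groups did not all correlate (r from -0.43 to 0.45 between deviations), so the block is no pairing, and it changed no other call between groups. The animal as a block kept the call of 1 gene, RT1-Bb, for the difference between tissues. Covariation between tissues gave 1 call in place of 0 without removal of group means (RT1-DMa), 2 with marker means removed (RT1-Da and RT1-DMa), and 0 to 1 with an animal left out (RT1-DMa without MONW-Lep replicate 3). Pairs past the permutation threshold were, in settings chosen after seeing the data, 5 in place of 18 in PBMC without the B cell mean, 3 in place of 6 in hippocampus without the microglia mean, and 9 to 19 in PBMC and 2 to 8 in hippocampus with an animal left out. The lowest counts came without MONW replicate 7 in PBMC and without MONW replicate 4 in hippocampus. The cause of these shifts was not tested.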

Other observations

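Platelet markers, which do not belong to class II presentation, also correlated with several of these genes in PBMC. The median r with the 3 of 5 platelet markers whose values formed no separate clusters was 0.645 for RT1-DMb, 0.60 for RT1-DMa, 0.58 for Ciita and 0.19 for RT1-Da, and the mean log2 level of all 5 ranged over 7.51 to 10.76 in MONW-Lep, 8.02 to 10.99 in MONW and 7.94 to 11.03 in NW animals. Erythroid markers ran the other way, with a median r over 4 markers of -0.59 for Cd74 and -0.58 for Ciita. On the PBMC array of MONW replicate 7 the standardized mean was -1.82 for the platelet markers and 1.75 for the erythroid markers.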
